A study of Mus musculus with 8 samples.

Results

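Defence against oxidants, glutathione chemistry and metal buffering were described through 41 genes chosen by name: NRF2 and its partner KEAP1, the enzymes of the thioredoxin and glutathione systems, peroxidases, superoxide dismutases, catalase, glutathione transferases, metallothioneins and ferritin chains. Every probe whose gene symbol was one of these names was taken, which gave 61 probes of 36 genes, out of 16593 named genes on the array. The names Gsr, G6pdx, Pgd, Prdx5 and Prdx6 matched no probe and were not analysed here. Of the 61 probes, 53 of 34 genes were kept for testing, and Gclc and Ftl1 were not detected on any array. The cells were primary smooth muscle cells from carotid arteries of male C57bl6 mice, and all of them lacked PMCA4, the calcium pump of the plasma membrane encoded by Atp2b4. The rescued group (4 arrays) had received PMCA4a cDNA by electroporation, and the knockout group (4 arrays) had not. Both groups were synchronised, stimulated with serum and PDGF-BB, a growth factor for smooth muscle, and collected in late G1/S. The ages of the mice, and whether replicates were separate cultures or animals, are not given in the sources used here, so each p-value reflects the variation among these arrays, part or all of which may be technical. The labels mention electroporation for the rescued cells and do not say whether the knockout cells were mock-electroporated. Wild-type cells were not analysed here. If the knockout cells were not electroporated, the effect of electroporation and that of PMCA4a cannot be told apart.

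NRF2, the product of Nfe2l2, is a transcription factor that KEAP1 holds in the cytoplasm and marks for degradation; oxidants and electrophiles release it, and it then drives genes that carry the antioxidant response element. Glutathione is a small thiol made in sequential steps from cystine-derived cysteine; peroxidases spend it on peroxides and transferases attach it to reactive lipids and drugs. Thioredoxin and the peroxiredoxins form a parallel thiol system, superoxide dismutases turn superoxide into hydrogen peroxide, and metallothioneins bind zinc and copper and are induced by metals through metal response elements. In vascular smooth muscle these systems are best known for limiting oxidant signals that accompany growth factor stimulation and injury.

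Between 12223 and 12873 of 25697 probes were detected per array. Atp2b4 did not separate the groups (log2 difference 0.02, adjusted p = 0.911), and its probes do not check the labels, since their place relative to the deletion and the cDNA was not analysed here. Of 6 measured smooth muscle markers out of 10 listed, 2 were higher and 2 lower in rescued cells, with log2 differences from -2.85 to 1.70. Their summed level was 57500 to 63000 units on rescued and 60600 to 65700 units on knockout arrays (linear normalized intensity). Acta2 made up most of that sum, which thus says little about the other markers. Among the defining ones, Acta2 was near the top of the scale in both groups (15.83 ± 0.07 in rescued and 15.87 ± 0.06 in knockout cells) and Tagln was lower in rescued cells (-1.43, adjusted p = 0.000162), while Cnn1 was not detected on any array and Myh11 on 1 rescued array only. Markers of other cell types were higher in rescued cells in part. Of 6 measured endothelial markers 4 were higher (sum 2080 to 3450 units on rescued and 1520 to 1710 units on knockout arrays), while Pecam1 and Cdh5 were not detected on any array. Of 3 measured leukocyte markers 2 were higher and 1 lower (491 to 544 units on rescued and 269 to 363 units on knockout arrays), while Ptprc, Adgre1 and Itgam were not detected on any array. Cartilage and bone markers (3 of 4 measured higher) summed to 1310 to 5660 units on rescued and 503 to 567 units on knockout arrays, while Acan, Ibsp and Comp were not detected on any array. Adipocyte markers (1 of 2 measured higher) summed to 1110 to 1510 units on rescued and 417 to 448 units on knockout arrays. The adipocyte markers Adipoq, Plin1, Cidec and Fabp4 were not detected on any array. The part of these markers in the results below was not tested. Of 8 measured markers of adventitial fibroblasts out of 10 listed, 1 was higher and 5 lower in rescued cells. Their summed level was 6360, 4970, 17600 and 5930 units on rescued replicates 1 to 4, against 13500 to 14900 units on knockout arrays. Rescued replicate 3 thus stood apart from the other rescued arrays, and it alone among them reached the level of the knockout arrays. In such bulk samples fewer cells of a type and less RNA per cell cannot be told apart.

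The promoters of 2 pairs of related genes are shown because only 1 metallothionein gene passed and because Gstm5 and Gstm1 moved in opposite directions. Whether the values of Mt2 and Mt1 differ from each other was not tested. Mt2 and Mt1 are neighbours on chromosome 8, and Gstm5 and Gstm1 lie in 1 gene cluster on chromosome 3. Each run is the 250 bases before the annotated start, 5′ to 3′ on the gene's own strand, from RefSeq on GRCm38.p6. Capitals mark the core of the antioxidant response element (TGACNNNGC) and of the metal response element (TGCACNC or TGCGCNC), searched on both strands.
Mt2 (chr8:94172368-94172617, plus strand): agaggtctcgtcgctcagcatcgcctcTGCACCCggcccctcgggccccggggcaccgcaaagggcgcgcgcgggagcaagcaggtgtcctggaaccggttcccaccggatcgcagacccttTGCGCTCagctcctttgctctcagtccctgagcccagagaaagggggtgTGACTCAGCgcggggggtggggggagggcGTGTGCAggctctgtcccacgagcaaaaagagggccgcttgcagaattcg
Mt1 (chr8:94178839-94179088, plus strand): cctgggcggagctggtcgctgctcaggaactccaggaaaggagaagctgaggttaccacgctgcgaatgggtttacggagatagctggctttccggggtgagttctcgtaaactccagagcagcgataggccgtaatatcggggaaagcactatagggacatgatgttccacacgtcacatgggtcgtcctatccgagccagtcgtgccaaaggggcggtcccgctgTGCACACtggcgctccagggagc
Gstm5 (chr3:107895604-107895853, plus strand): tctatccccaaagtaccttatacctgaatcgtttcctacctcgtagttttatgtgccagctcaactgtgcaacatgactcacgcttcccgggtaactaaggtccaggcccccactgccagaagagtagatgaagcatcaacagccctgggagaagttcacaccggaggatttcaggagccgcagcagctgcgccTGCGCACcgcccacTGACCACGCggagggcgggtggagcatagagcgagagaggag
Gstm1 (chr3:108017974-108018223, minus strand): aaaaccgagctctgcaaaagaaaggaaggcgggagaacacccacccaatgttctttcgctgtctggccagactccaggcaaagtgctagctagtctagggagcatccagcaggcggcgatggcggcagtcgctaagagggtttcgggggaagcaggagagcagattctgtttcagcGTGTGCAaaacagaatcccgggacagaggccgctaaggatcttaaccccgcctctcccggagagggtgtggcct

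The window of Mt2 held 4 matches, 1 to the antioxidant core (at -79 from the start) and 3 to the metal core, whereas that of Mt1 held 1, to the metal core. That of Gstm5 held 1 of each, and that of Gstm1 held 1 metal core. Over the 35 member genes with a listed promoter, taking the start listed first, 8 held an antioxidant core and 9 a metal core. Among all 27025 promoters of that length, 10.1% held the antioxidant core and 21.3% the metal core. In Gclm a match of each kind shared bases, as did the metal matches of G6pdx. Besides Mt2, Gstm5 and G6pdx, the antioxidant core was found before Nfe2l2, Gclm, Prdx1, Sod1 and Mgst1, a group that holds genes with higher, lower and uncalled levels. The windows follow the annotated starts, which are uncertain for Mt2 and Mt1; another start would move the window and could change these counts. Sequence outside the windows was not searched; a match describes letters, not binding.

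Of the 34 measured genes, 14 passed the threshold of an adjusted p under 0.05, 10 lower and 4 higher in rescued cells. This is 41.2% of the measured members, where 39.9% of all 8633 measured genes passed, so the share of changed members was near that of the whole array. By direction, 29.4% of the members were lower, against 18.9% of all genes, and 11.8% were higher, against 21.0% of all genes. These shares are a description and were not tested, and the members were chosen with earlier results of these data known. The counts in this paragraph include Gpx3, which was kept through the knockout arrays, where it is high. The median log2 difference was -0.07 over the members and 0.01 over all genes. The groups did not overlap for 16 members (47.1%), where this held for 40.9% of all genes. Counted by probe, 18 of the 53 kept probes passed, where 38.8% of all kept probes did. Only Hmox1, 1 of the 34 members, passed when a change of more than 1.5-fold was required, where 443 of all 8633 measured genes did. By role, the genes that fell were 1 of 2 regulators, 3 of 5 heme, quinone and thioredoxin enzymes, 1 of 3 glutathione supply genes, 2 of 5 glutathione peroxidases, 1 of 2 metallothioneins and 2 of 8 glutathione transferases. Those that rose were 2 of 4 superoxide dismutase and catalase genes and 2 of 8 glutathione transferases.

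**Figure D1:**
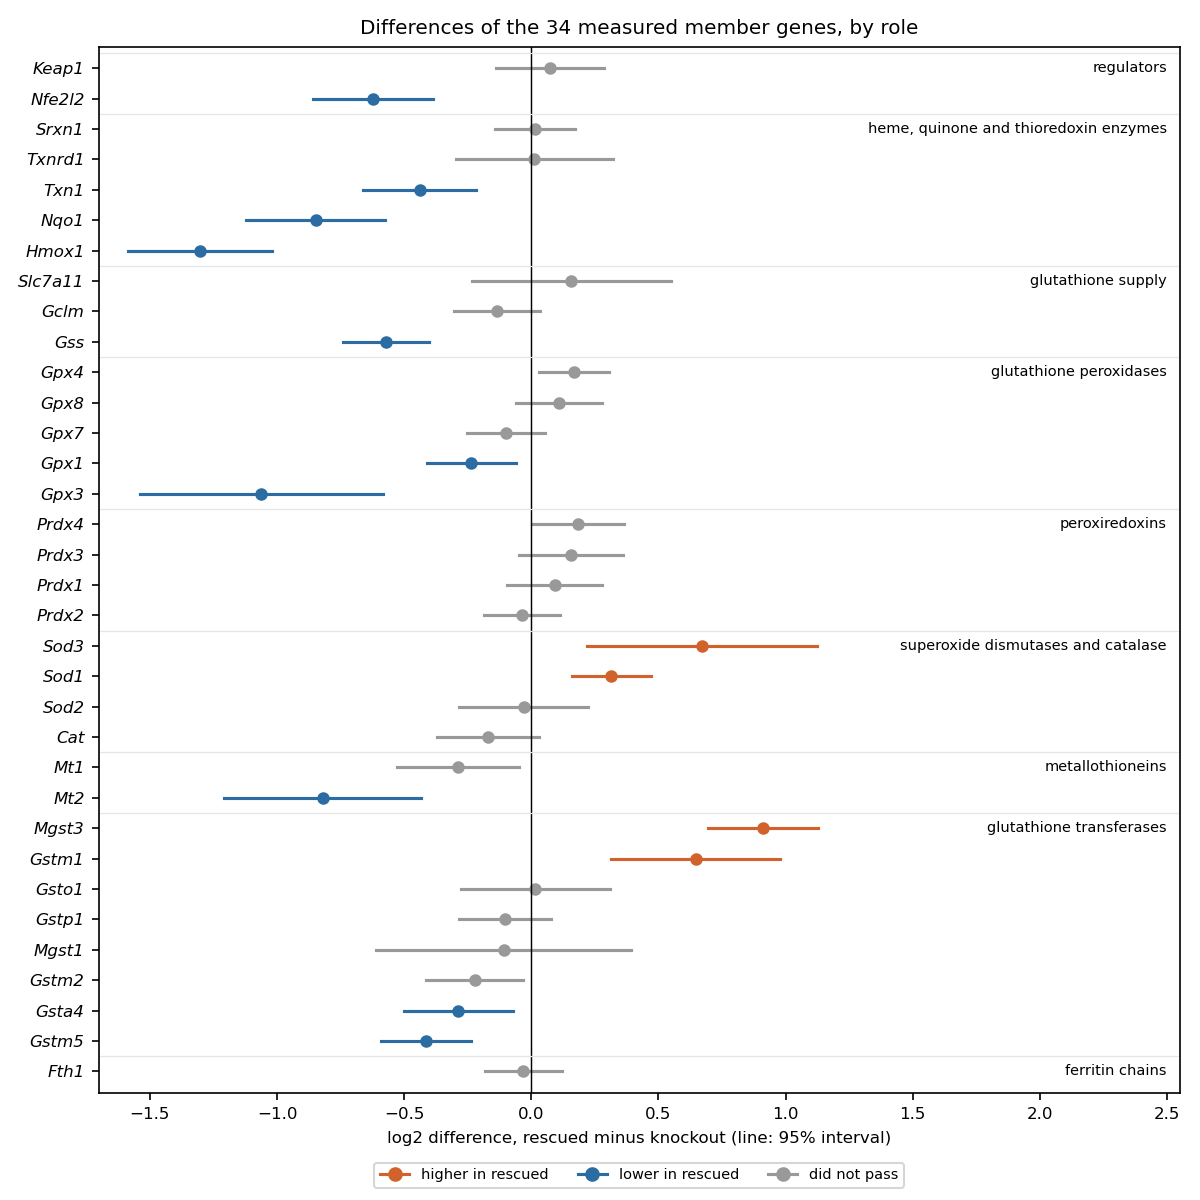
Log2 difference, rescued minus knockout (x axis), of the 34 measured member genes (y axis, grouped by role), with points for the estimate and lines for the 95% interval of the limma fit. Hmox1 (-1.30) and Gpx3 (-1.06) lie farthest to the left (without background correction Gpx3 was at -0.39, and Nqo1 and Mt2 at -0.63), and Mgst3 (0.91) farthest to the right, while the peroxiredoxins lie close to 0.

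Nfe2l2 itself was lower in rescued cells. Its normalized log2 intensity was 7.97, 7.59, 7.98 and 7.93 on the rescued arrays, against 8.31, 8.54, 8.54 and 8.57 on the knockout arrays. Every rescued array lay below every knockout array, and the difference was -0.62 (95% interval -0.86 to -0.39, adjusted p = 0.00152), or 1.54-fold. A second probe of Nfe2l2 was not detected on any array. Keap1, the inhibitor that binds NRF2, read 10.58, 10.62, 10.97 and 10.81 in rescued cells and 10.75, 10.64, 10.65 and 10.64 in knockout cells. The groups overlapped, the difference was 0.07 (95% interval -0.14 to 0.29, adjusted p = 0.573), and the 4 Keap1 probes ranged from -0.04 to 0.09, none past the threshold.

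Of the 5 measured heme, quinone and thioredoxin enzymes, which NRF2 is known to induce, 3 fell and 2 did not pass, where 18.9% of all genes fell. Gclm, Slc7a11 and Prdx1, known NRF2 targets described below under their own roles, did not pass. Hmox1, which encodes heme oxygenase 1, the enzyme that opens the heme ring and releases iron, biliverdin and carbon monoxide, differed most of all members. It stood at 9.69, 10.17, 10.25 and 10.16 on rescued arrays and at 11.51, 11.39, 11.38 and 11.21 on knockout arrays. The groups were 0.96 log2 units apart at their nearest arrays, and the mean fell by 1.30 on the log2 scale, 2.47-fold lower (95% interval -1.59 to -1.02, adjusted p = 6.02e-05). Nqo1, the quinone reductase long used as a readout of NRF2, read 8.02, 7.61, 7.52 and 7.77 in rescued cells, against 8.37, 8.61, 8.62 and 8.73 in knockout cells. Its highest rescued array lay below its lowest knockout array, with a difference of -0.85 (1.80-fold lower, adjusted p = 0.000589); its other probe was not detected.

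Txn1, which encodes the cytosolic thioredoxin, read 8.68, 8.39, 8.43 and 8.51 on rescued arrays and 8.82, 9.01, 9.14 and 8.81 on knockout arrays. The groups did not overlap, with a difference of -0.44 (1.36-fold lower, adjusted p = 0.00699). A dim second probe, detected on 3 arrays of each group, differed by -0.09 without passing. Txn1 lies on chromosome 4, where the median of the 742 other kept probes was -0.19, and after centring each chromosome its difference was -0.25 (adjusted p = 0.0535). Txnrd1, the selenium-containing reductase that recharges thioredoxin, was dim and did not pass (5.77 ± 0.21 in rescued and 5.76 ± 0.23 in knockout cells, difference 0.01, 95% interval -0.30 to 0.32). Srxn1, which encodes sulfiredoxin, the repair enzyme of overoxidised peroxiredoxins, also did not pass at its brightest probe (10.60 ± 0.09 in rescued and 10.59 ± 0.04 in knockout cells, difference 0.01), and its dimmer probes differed by -0.21 and -0.22. Whether the differences of these genes differ from each other was not tested.

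**Figure D2:**
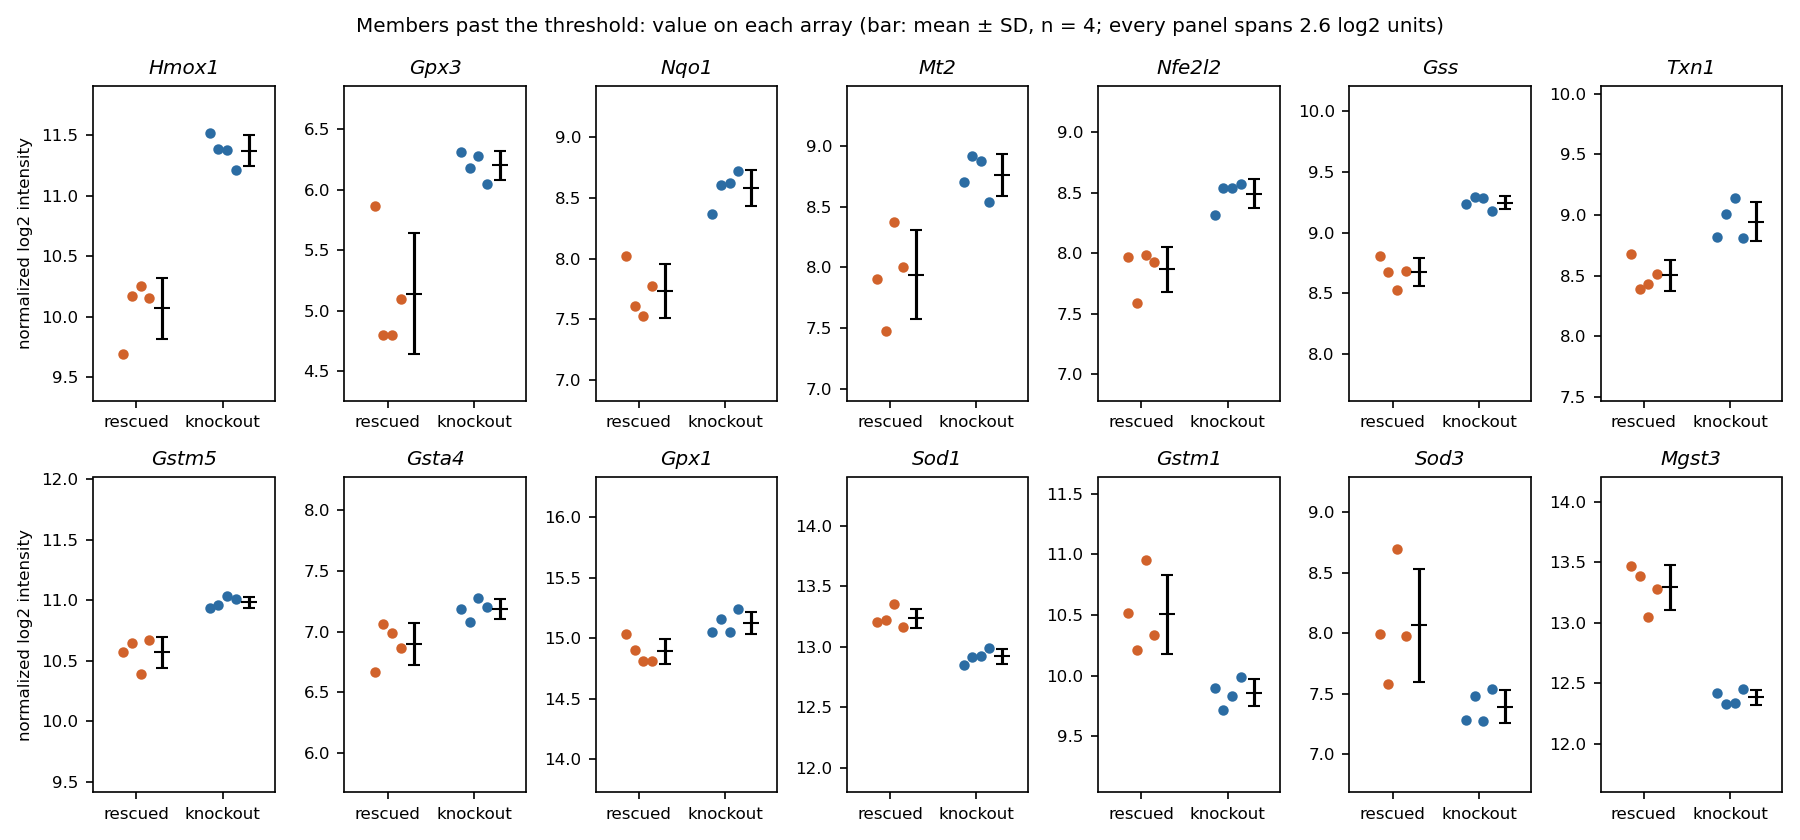
Normalized log2 intensity (y axis) on each array for the 14 members past the threshold, rescued arrays on the left and knockout arrays on the right of each panel, with the mean ± SD (n = 4) beside the points. The panels run from the lowest difference (Hmox1, -1.30) to the highest (Mgst3, 0.91) and share 1 span of the axis, and in none of them do the groups overlap.

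In the supply of glutathione, 1 of 3 measured genes passed, where 39.9% of all genes did. Gss, glutathione synthetase, which adds glycine in the final step, read 8.80, 8.68, 8.53 and 8.69 in rescued cells, against 9.23, 9.29, 9.28 and 9.17 in knockout cells. The difference was -0.57 (1.49-fold lower, adjusted p = 0.000376), the groups did not overlap, and the other Gss probes gave -0.58 and -0.52, both past the threshold. Gclm, the modifier subunit of the ligase that makes the rate-limiting step, did not pass (10.34 ± 0.09 in rescued and 10.47 ± 0.09 in knockout cells, difference -0.14, adjusted p = 0.19). The catalytic subunit Gclc was not detected on any array. Slc7a11, the cystine importer, was dim and did not pass (5.68 ± 0.34 in rescued and 5.52 ± 0.23 in knockout cells, difference 0.16, adjusted p = 0.51).

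Of 5 measured glutathione peroxidase genes, 2 fell and 3 did not pass, where 18.9% of all genes fell. Gpx3, the secreted plasma form, read 5.86, 4.80, 4.80 and 5.10 on rescued arrays, against 6.31, 6.17, 6.28 and 6.05 on knockout arrays. It was detected on 1 rescued and 4 knockout arrays, rescued replicate 1 being the bright one. It was thus kept through the knockout arrays, where it is high, so its difference of -1.06 (adjusted p = 0.00374) is given as a description. Since it lies close to background its size depends on the background correction; without one it was -0.39 (adjusted p = 0.00213). Gpx1, the abundant cytosolic form, read 15.03, 14.91, 14.82 and 14.82 in rescued cells and 15.06, 15.16, 15.06 and 15.24 in knockout cells, a gap of 0.023 between the nearest arrays. Its difference of -0.24 (1.18-fold lower, adjusted p = 0.0389) was small and did not pass once any 1 of the 7 arrays other than rescued replicate 1 was left out (adjusted p from 0.0236 to 0.101 with 1 array out).

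Gpx4, which reduces lipid peroxides in membranes and restrains ferroptosis, read 12.31, 12.26, 12.27 and 12.28 on rescued arrays, against 12.05, 12.10, 12.18 and 12.14 on knockout arrays. All rescued arrays lay above all knockout arrays, but the difference of 0.17 did not pass (adjusted p = 0.0575). Its dimmer probe differed by -0.17, also without passing. Gpx7 and Gpx8, enzymes of the endoplasmic reticulum, differed by -0.10 (adjusted p = 0.278) and 0.11 (adjusted p = 0.281). The 3 Gpx8 probes lay between 0.05 and 0.11.

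None of the 4 measured peroxiredoxin genes passed, where 39.9% of all genes did. Peroxiredoxins clear peroxides with a reactive cysteine. Prdx1 averaged 14.50 ± 0.08 in rescued and 14.41 ± 0.13 in knockout cells (difference 0.09, 95% interval -0.09 to 0.28). Prdx2 averaged 14.46 ± 0.08 in rescued and 14.49 ± 0.04 in knockout cells (difference -0.04, 95% interval -0.19 to 0.11). Its dimmer probe differed by -0.27, also without passing (adjusted p = 0.214). Prdx3, the mitochondrial form, differed by 0.16 (95% interval -0.05 to 0.36). Prdx4, the form of the endoplasmic reticulum, read 14.36 to 14.68 on rescued and 14.25 to 14.31 on knockout arrays, which did not overlap, and its difference of 0.18 did not pass (adjusted p = 0.102). Over the brightest probes of the 4 genes the intervals reach from -0.19 to 0.36 on the log2 scale.

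Among 3 measured superoxide dismutase genes, 2 were higher in rescued cells and Sod2 did not pass, where 21.0% of all genes were higher. Sod1, the copper and zinc enzyme of the cytosol, read 13.21, 13.22, 13.35 and 13.16 in rescued cells, against 12.85, 12.92, 12.93 and 12.99 in knockout cells. The groups did not overlap, and the difference was 0.31 (1.24-fold higher, adjusted p = 0.00612). Sod3, the extracellular form that binds the vessel matrix, read 7.996, 7.58, 8.70 and 7.98 on rescued arrays, against 7.28, 7.48, 7.27 and 7.54 on knockout arrays. The groups were 0.046 apart at their nearest arrays and the difference was 0.67 (1.59-fold higher, adjusted p = 0.0257). Rescued replicate 3 was the highest; without it the difference was 0.46 (adjusted p = 0.0162), while without knockout replicate 1 or knockout replicate 3 the call was lost (adjusted p = 0.063 and 0.0644).

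Sod2, the mitochondrial manganese enzyme, did not pass (12.41 ± 0.24 in rescued and 12.44 ± 0.06 in knockout cells, difference -0.03, 95% interval -0.28 to 0.22). Its rescued replicate 3 was low, at 12.05 against 12.51 to 12.56 on the other rescued arrays. Cat, which encodes catalase, the peroxisomal enzyme that splits hydrogen peroxide, differed by -0.17 without passing (9.03 ± 0.15 in rescued and 9.20 ± 0.09 in knockout cells, adjusted p = 0.167).

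Both metallothionein genes were lower on average in rescued cells and 1 of them passed, where 39.9% of all genes did. Mt2 read 7.90, 7.48, 8.37 and 8.01 on rescued arrays, against 8.71, 8.92, 8.88 and 8.54 on knockout arrays. The groups did not overlap, and the difference was -0.82 (1.77-fold lower, 95% interval -1.21 to -0.43, adjusted p = 0.0047). Mt1 was far brighter and close to the top of the scale. It read 14.85, 14.82, 15.24 and 14.73 in rescued cells, against 15.16, 15.24, 15.20 and 15.19 in knockout cells. The groups overlapped through rescued replicate 3 alone, and the difference of -0.29 did not pass (adjusted p = 0.0593). Without that array Mt1 differed by -0.40 and passed (adjusted p = 0.00141), and Mt2 differed by -0.97 (adjusted p = 0.000977). In both genes rescued replicate 3 was the highest of the rescued arrays. Its summed level of adventitial markers was 17600 units, against 4970 to 6360 on the other rescued and 13500 to 14900 on knockout arrays. The part of those markers in the values, or in the difference between the groups, was not tested.

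Glutathione transferase genes moved both ways: of 8 measured, 2 rose, 2 fell and 4 did not pass. Across all genes 21.0% rose and 18.9% fell. Mgst3, a membrane-bound transferase and peroxidase, had the largest rise of any member. It read 13.47, 13.38, 13.04 and 13.28 in rescued cells, against 12.42, 12.33, 12.33 and 12.45 in knockout cells. The gap between the nearest arrays was 0.59, the difference 0.91 (1.88-fold higher, 95% interval 0.69 to 1.13, adjusted p = 1e-04), and a second probe also gave 0.91 (adjusted p = 0.000249). Mgst1, its relative of the endoplasmic reticulum and outer mitochondrial membrane, read 9.88, 10.07, 11.09 and 10.18 in rescued cells and 10.39, 10.50, 10.39 and 10.37 in knockout cells. Rescued replicate 3 lay above all knockout arrays and the other rescued arrays below them, so the difference was -0.11 with all arrays (adjusted p = 0.733) and -0.37 without that one (adjusted p = 0.00866).

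The mu class genes, which encode cytosolic enzymes and lie together on chromosome 3, gave values of both signs. Gstm5 read 10.57, 10.64, 10.39 and 10.67 on rescued arrays, against 10.93, 10.96, 11.04 and 11.01 on knockout arrays. It was lower on every rescued array, by 0.41 on average (log2 difference -0.41, adjusted p = 0.0027). Gstm1 read 10.52, 10.21, 10.95 and 10.33 in rescued cells, against 9.90, 9.72, 9.83 and 9.99 in knockout cells. It was higher on every rescued array, with a difference of 0.65 (1.57-fold, adjusted p = 0.00736). The second Gstm1 probe, close to background and detected on 2 rescued and 3 knockout arrays, differed by -0.25 (adjusted p = 0.0708), and the average of both probes by 0.20, which did not pass (adjusted p = 0.0764). Without rescued replicate 3 the brighter probe differed by 0.50 (adjusted p = 0.00372).

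Gstm2 stood between Gstm5 and Gstm1 by its difference. Its brightest probe read 13.31, 13.20, 13.57 and 13.34 on rescued arrays, against 13.58, 13.60, 13.56 and 13.56 on knockout arrays, a difference of -0.22 that did not pass (adjusted p = 0.0641). The groups overlapped through rescued replicate 3, and without it the difference was -0.30 (adjusted p = 0.00678). The other Gstm2 probes differed by -0.21 without passing and by -0.43 (adjusted p = 0.00535). Mu class transcripts are alike in sequence, probe sequences were not used here, and a probe may read more than 1 of them, so the split between Gstm1 and the others is uncertain. The median of the 592 other kept probes on chromosome 3 was -0.17; after centring, Gstm1 stood at 0.84, Gstm2 at -0.03 and Gstm5 at -0.22, with the calls as before (adjusted p = 0.00382, 0.84 and 0.0386).

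**Figure D3:**
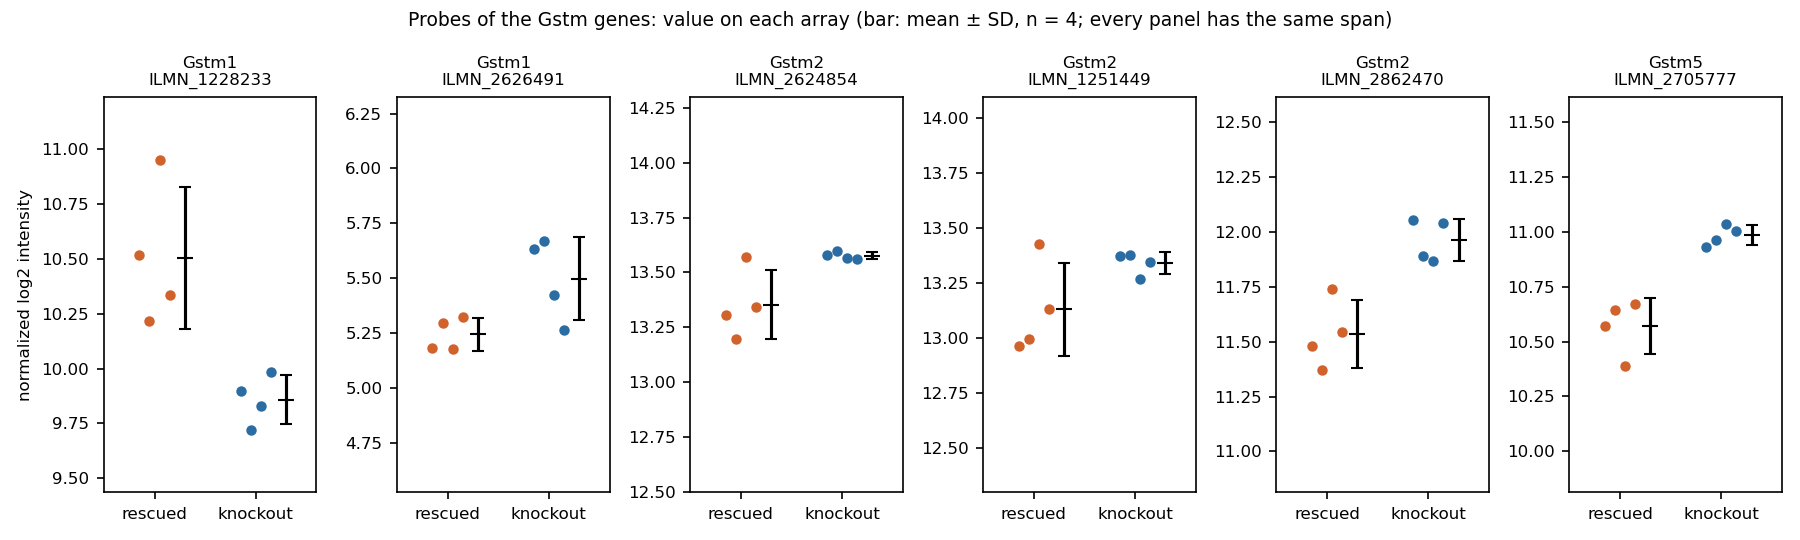
Normalized log2 intensity (y axis) on each array for the 6 kept probes of Gstm1, Gstm2 and Gstm5, rescued arrays on the left and knockout arrays on the right of each panel, with the mean ± SD (n = 4). The brighter Gstm1 probe is higher in rescued cells (0.65), all Gstm2 and Gstm5 probes are lower on average, and rescued replicate 3 is the highest rescued array at the brighter Gstm1 probe and at the 3 Gstm2 probes.

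Gsta4, which conjugates the lipid peroxidation product 4-hydroxynonenal, read 6.67, 7.06, 6.99 and 6.86 in rescued cells, against 7.18, 7.08, 7.27 and 7.20 in knockout cells. The nearest arrays were 0.014 apart and the difference was -0.29 (1.22-fold lower, adjusted p = 0.0381). The call ended without rescued replicate 1 or 4 or without knockout replicate 1, 3 or 4 (adjusted p from 0.0242 to 0.0985 with 1 array out). Gstp1, the abundant pi class enzyme, averaged 13.56 ± 0.10 in rescued and 13.67 ± 0.10 in knockout cells (difference -0.10, adjusted p = 0.337), and its 3 probes ranged from -0.10 to -0.07. Gsto1, the omega class enzyme, differed by 0.02 (adjusted p = 0.936), with 12.46 to 13.17 on rescued arrays and 12.79 to 12.86 on knockout arrays. Fth1, the ferritin heavy chain that stores iron released from heme, averaged 15.77 ± 0.05 in rescued and 15.80 ± 0.08 in knockout cells, near the top of the scale (difference -0.03, adjusted p = 0.744). The ferritin light chain probe of Ftl1 was not detected on any array.

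Probes of the same gene did not always give the same call or sign. Of the 12 members with several kept probes, 2 had every probe past the threshold (Gss and Mgst3), 7 had none, and 3 were split (Txn1, Gstm1 and Gstm2). Probes of Keap1, Srxn1, Gpx4 and Gstm1 gave differences of both signs, from -0.25 to 0.65 for Gstm1 and from -0.17 to 0.17 for Gpx4. Among the 20 genes that did not pass, differences ran from -0.29 to 0.18, and for 17 of them the 95% interval lay within 0.5 on the log2 scale on either side of 0; the others were Slc7a11, Mt1 and Mgst1.

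The rescued arrays spread more widely than the knockout arrays over these genes. The SD was larger in the rescued group for 29 of 34 members (85.3%), against 67.2% of all measured genes, and the median SD was 0.16 in rescued and 0.08 in knockout cells. Over all genes the median SD was 0.14 in rescued and 0.10 in knockout cells. Rescued replicate 3 was the array farthest from the rescued median for 15 of 34 members (44.1%), near the 41% of all genes. It was the highest rescued array for 13 members, Sod3, Gstm1, Mgst1, Mt1 and Mt2 among them, and the lowest for 13. The heat map of deviations shows Sod3, Gstm1 and Mgst1 raised on that array, and Hmox1, Nqo1, Nfe2l2 and Gss lowered on all 4 rescued arrays.

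**Figure D4:**
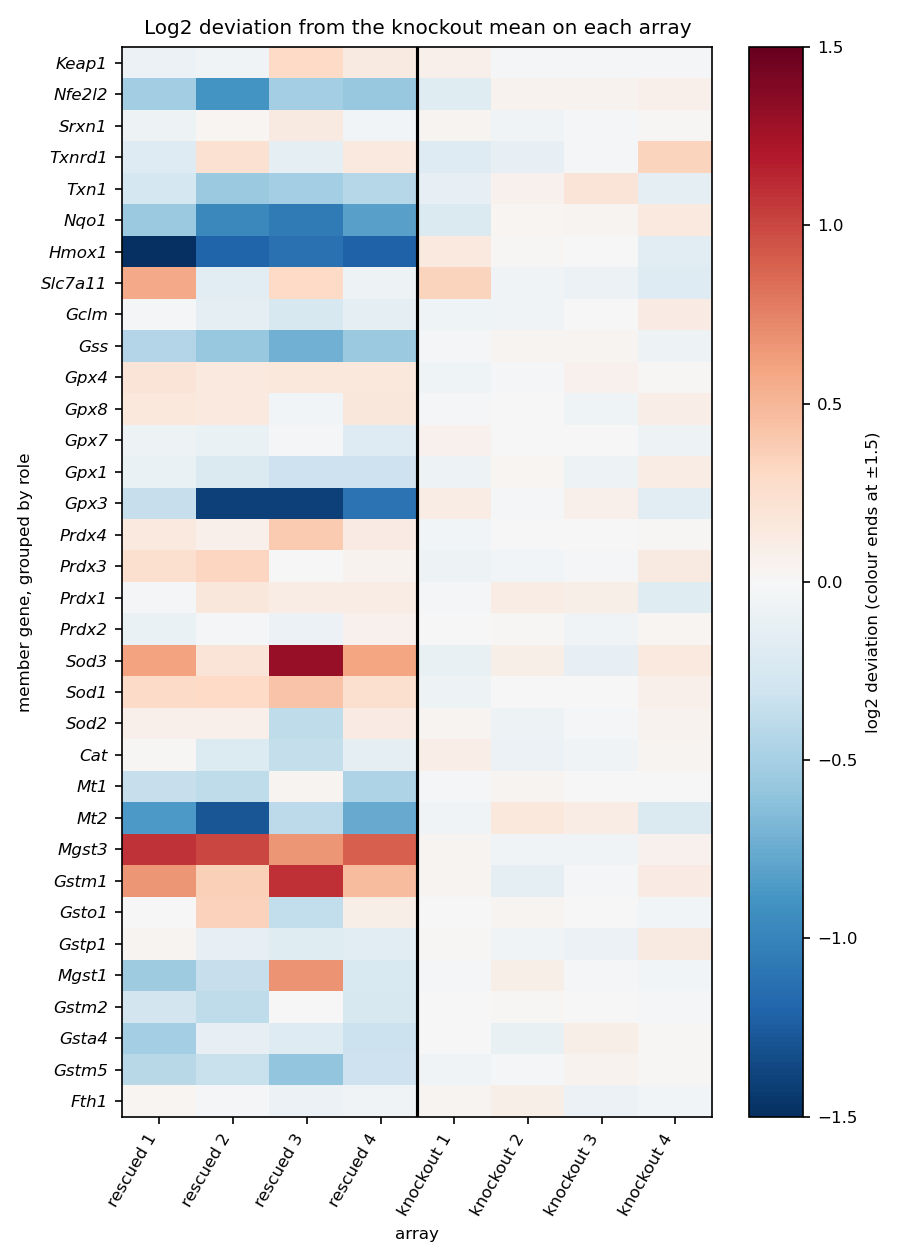
Log2 deviation from the knockout mean (colour, red higher and blue lower) for the 34 measured members (rows, grouped by role) on each of the 4 rescued and 4 knockout arrays (columns). Hmox1, Nqo1, Nfe2l2, Gss, Txn1 and Gstm5 are lower on every rescued array than on any knockout array, Mgst3 is higher on all 4, and rescued replicate 3 differs from the other rescued arrays at Mgst1, Sod3, Sod2 and Mt1.

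The measured members lie on 15 chromosomes, and the median difference of the other kept probes varied between chromosomes, from -0.31 on chromosome 12 to 0.21 on chromosome 15, neither of which holds a measured member. Of 5 measured members on chromosome 8, 3 were lower (Hmox1, Nqo1 and Mt2), where 18.9% of all genes were lower. The median of the 631 other kept probes on chromosome 8 was 0.01. The measured members of chromosomes 1 and 5, Mgst3 and Sod3, rose, where the medians were 0.08 and 0.03. After centring each chromosome, 15 members passed, 6 higher and 9 lower, while fewer of all measured genes passed than before centring. The call of Txn1 was lost, and Prdx1 (0.28, adjusted p = 0.0274) and Prdx4 (0.23, adjusted p = 0.0236) passed as higher.

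Other genes of the same pathways were taken from 6 lists, of which 116 of 166 genes were measured; counting each gene once, 21 rose and 29 fell, 43.1% in all. Among all measured genes 39.9% passed, 21.0% higher and 18.9% lower. As for the members, these shares were not tested. Of 22 other NRF2 regulators and targets, 3 rose and 3 fell (27.3%). Their median log2 difference was 0.11, with 15 genes above 0 and 7 below. Aldh3a1, an aldehyde dehydrogenase of the lens and cornea that NRF2 can induce, read 12.06, 11.82, 13.10 and 12.17 in rescued cells, against 10.30, 10.13, 10.11 and 10.33 in knockout cells. It was higher on every rescued array, 4.19-fold on average (log2 difference 2.07, adjusted p = 0.000157), and again highest on rescued replicate 3. Idh1, which makes NADPH in the cytosol, was lower by 0.77 on the log2 scale (difference -0.77, adjusted p = 9.53e-05), and the drug and glutathione conjugate exporter Abcc1 differed by -0.37 (adjusted p = 0.0138). Esd, an esterase of formaldehyde detoxification, differed by -0.46 at its brightest probe, and its 3 other kept probes, from -0.17 to 0.17, did not pass.

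Of 28 other glutathione and thiol enzymes, 4 rose and 10 fell, with a median of -0.10. Gstz1, a zeta class transferase of tyrosine breakdown, differed by -0.60, the glutaredoxin genes Glrx and Glrx5 by -0.50 and -0.39, and Gsto2, an omega class transferase, by 1.02 (adjusted p = 0.000366). Glrx5 lies on chromosome 12, whose median was -0.31, and centring reduced its difference to -0.08 (adjusted p = 0.374). Of 24 redox repair and selenoprotein genes, 5 rose and 4 fell. Selenop, the secreted selenium carrier, rose 3.14-fold, to 10.58 ± 0.35 in rescued cells, against 8.93 ± 0.03 in knockout cells (adjusted p = 4.03e-05), and its second probe by 1.12 on the log2 scale. Selenoh rose by 0.75, Selenon fell by 0.59, and Msrb1, a methionine sulfoxide reductase, fell by 0.95 at one probe and by 0.80 at another.

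Of 9 measured oxidant-producing enzymes, 2 rose and 3 fell. Xdh, xanthine dehydrogenase, the source of xanthine oxidase, read 7.27, 7.24, 7.61 and 7.20 in rescued cells, against 9.30, 9.30, 9.27 and 9.37 in knockout cells. It was 3.95-fold lower (log2 difference -1.98, adjusted p = 7.79e-07). Nox4, the NADPH oxidase of vascular smooth muscle, fell by 0.75 (6.68 ± 0.30 in rescued and 7.43 ± 0.11 in knockout cells, adjusted p = 0.00245), and Maob, a monoamine oxidase, fell by 0.53. Nos3, the endothelial nitric oxide synthase gene, was not detected in knockout cells and was at least 1.25-fold higher in rescued cells by its bound (5.63 ± 0.23 in rescued and 5.11 ± 0.16 in knockout cells, adjusted p = 0.0101). It was kept through the rescued arrays alone, so this value is a description, and Nos3 is itself 1 of the endothelial markers summed above. Without background correction Nox4, Maob and Nos3 stayed past the threshold with smaller differences of -0.43, -0.20 and 0.18.

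Of 18 zinc and metal handling genes, 2 rose and 4 fell. The zinc importer Slc39a8 was not detected in knockout cells and was at least 1.11-fold higher in rescued cells (adjusted p = 0.000252); it too was kept through the rescued arrays alone, and the value is a description. The zinc exporters Slc30a5 and Slc30a7 differed by 0.43 and -0.39, and the copper transporter gene Slc31a2 by -0.75 (-0.40 without background correction). Centring each chromosome ended the call of Slc30a7 (-0.20, adjusted p = 0.051). Of 16 iron handling genes, 5 rose and 6 fell (68.8%). Slc40a1, which rose, was detected on 4 rescued and 0 knockout arrays, and Trf, which fell, on 1 rescued and 4 knockout arrays. Both were kept through the group where they are high, so their calls are a description. The metalloreductase genes Steap2 and Steap1, both on chromosome 5, fell by 1.06 and 1.03, while Slc11a2, the iron importer DMT1, rose by 0.85 and Pcbp2, an iron chaperone and RNA-binding protein, by 0.54.

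**Figure D5:**
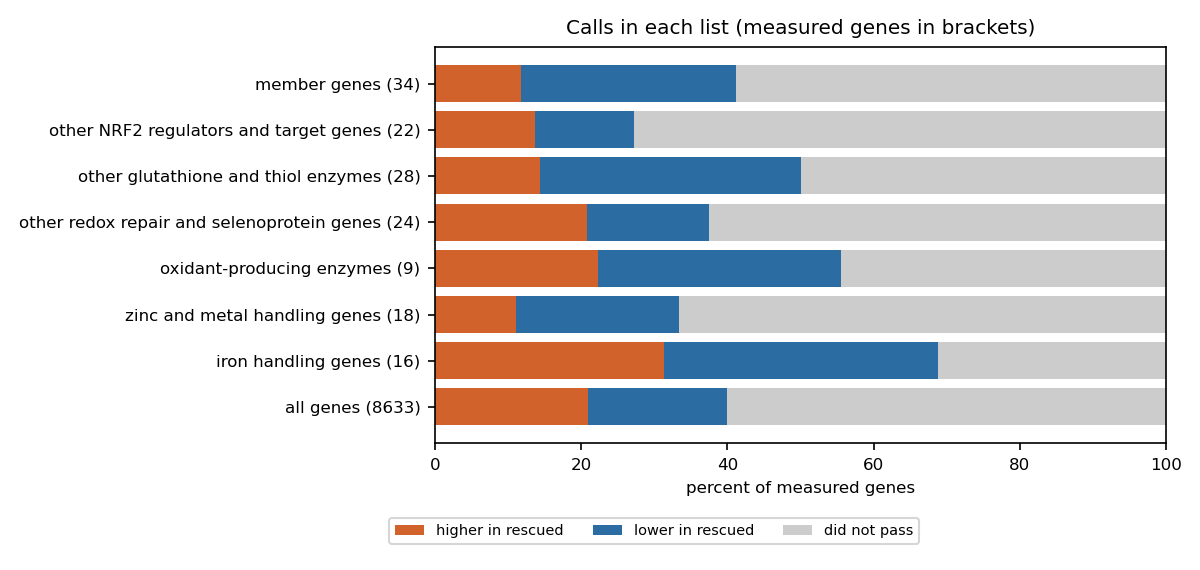
Percent of measured genes (x axis) that were higher in rescued cells, lower in rescued cells or did not pass, for the member genes, 6 further lists and all genes (rows, with the number measured). The members (41.2% called) lie near all genes (39.9%), and iron handling genes have the largest called share (68.8% of 16). That share counts Slc40a1 and Trf, which were kept through the group where they are high.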

How the data were processed

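RNA of 4 rescued and 4 knockout samples was hybridised to 1-colour Illumina mouse bead arrays. The non-normalized table deposited by the authors holds a mean bead intensity and a detection p-value for each of 25697 probes per array, per the file headers. The series table deposited by the authors holds log2 values, which differed by at most 0.0266 from the normalized values computed here (column medians 5.17 to 5.18); it served as an alternative. Background correction by the detection p-values, an offset of 16, quantile normalization and log2 transformation were done with neqc of limma 3.58.1 in R 4.3.3. A probe was kept where its detection p was under 0.05 on 4 or more of the 8 arrays (12658 probes), and each gene was read at its kept probe with the highest mean (8633 genes). Differences, rescued minus knockout, were fitted with lmFit and eBayes over all kept probes, and p-values were adjusted by the Benjamini-Hochberg method over all of them, with a threshold of 0.05. Adjusted p-values in the text are from this limma fit, and intervals are its 95% intervals. The method was tested on simulated data.

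Gene names came from RefSeq where the gene identifier of the platform annotation matched (23962 probes), and otherwise from the platform symbol. In the platform annotation 23978 probes had 1 symbol, 1719 had none and 0 had several. Every member was accounted for, with array values for those past the threshold and those whose probes disagreed, and up to 4 genes with the smallest p were named from each further list. The members and lists were chosen with earlier results of these data known. Replicate numbers did not pair the arrays: the correlations of same-numbered deviations were -0.0189, -0.0603, -0.0814 and -0.00301. The number of arrays limits the precision. Promoters were read from RefSeq (GRCm38.p6). Alternatives covered background, normalization, filter, model, probe choice, chromosome centring, thresholds and each array left out.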

Additional observations from a re-analysis of the deposited data

Results flagged for a closer look

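Single arrays stood apart from the other 3 of their group for 10 of the 116 groups of 4 arrays examined with Dixon's test at its 95% critical value, where chance marks about 1 in 20. Among the members, Nfe2l2 read 7.59 on rescued replicate 2 (7.93 to 7.98 on the other rescued arrays) and 8.31 on knockout replicate 1 (8.54 to 8.57 on the other knockout arrays). Hmox1 read 9.69 on rescued replicate 1, against 10.16 to 10.25 on the other rescued arrays. In both genes every rescued array stayed below every knockout array.

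On rescued replicate 3, Gpx8 read 14.11 (others 14.30 to 14.32), Sod2 read 12.05 (others 12.51 to 12.56) and Xdh read 7.61 (others 7.20 to 7.27). On rescued replicate 1, Gstz1 read 9.77 (others 9.89 to 9.90) and Maob read 5.83 (others 5.44 to 5.49). On the knockout side, Keap1 read 10.75 on replicate 1 (others 10.64 to 10.65) and Mgst1 read 10.50 on replicate 2 (others 10.37 to 10.39).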

How the results depend on the processing

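No difference changed sign among called results. Hmox1 passed under every alternative run; the other 13 called members lost the call in at least 1, and 6 of the 20 uncalled members passed in at least 1 (Gpx4, Prdx1, Prdx4, Mt1, Gstm2 and Mgst1). Where at least 1.5-fold was required (treat), 1 member gene passed (0 higher, 1 lower), with 1 member probe, 3 genes of the further lists, 443 genes and 581 probes in all, against 14, 18, 50, 3445 and 4906. At an adjusted p under 0.01, 11 members, 31 genes of the further lists, 2216 genes and 3037 probes passed. With 1 array left out, 11 to 16 members passed (3 to 4 higher, 8 to 12 lower), with 15 to 22 member probes, 42 to 52 genes of the further lists, 2922 to 3590 genes and 4141 to 5056 probes. With the replicate block, 12 members passed (4 higher, 8 lower), and fewer of all measured genes passed as well. Gpx1 (adjusted p = 0.0924) and Gsta4 (adjusted p = 0.0703) lost the call. The replicate numbers do not pair the arrays. Under the other alternatives, members called ranged from 12 without a detection filter to 17 without background correction, with a trended fit or with array weights. Over all genes, fewer also passed without a detection filter than in the fit reported above. More of all genes passed in each of the settings with 17 members called. The cause of these changes was not tested. Levels near background (Gpx3, Nos3, Slc39a8) limit the size that can be measured; whether bright probes (Gpx1, Mt1, Fth1) were saturated was not tested.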
